A study of Mus musculus with 18 samples.

Results

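Selectin ligand genes were followed in Foxp3+ regulatory T cells (Tregs) that had lost CD25, the alpha chain of the interleukin-2 receptor encoded by *Il2ra*. The 8 genes, out of 50600 in the count table, were *Chst2*, *Fut7*, *Fut4*, *Gcnt1*, *St3gal4*, *St3gal6*, *B4galt1* and *Selplg*. They were found in the table by their Ensembl identifiers in all 18 samples. *Chst2* was chosen by its own values in these samples, for a change that depended on the tissue, so its fold changes are given as a description with no test. The other 7 are its partners in the same glycan pathway and were tested together with all genes. They too were chosen with earlier results of these data known, which limits what their p can support.

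All mice were C57BL/6, and each sample came from 1 mouse. Thymic WT Tregs came from 5 Foxp3/RFP reporter mice and thymic CD25 KO Tregs from 5 CD25 cKO mice, all at 3–4 weeks of age. In CD25 cKO mice a floxed *Il2ra* is cut by Foxp3-YFP/Cre, a Cre expressed from the *Foxp3* locus, and the mice had been “cured” of autoimmunity by intravenous WT splenocytes given soon after birth. Their sorted Tregs were host cells. Splenic CD25 KO Tregs came from 4 mice with floxed CD25, the inducible Foxp3eGFP-Cre-ERT2 allele and the R26Y reporter, and splenic WT Tregs from 4 reporter controls with WT CD25. Both splenic groups received tamoxifen, at 7–10 weeks of age, and were collected 10–14 days later. Tissue, mouse model, age, tamoxifen and the date in the table's column headers changed together and cannot be told apart. In the thymus the reporter allele of *Foxp3* also differed between WT and CD25 KO mice, and only the CD25 cKO mice had been given splenocytes, so allele, cell transfer and genotype cannot be told apart there.

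Selectins are adhesion molecules that slow leukocytes on vessel walls by binding a sugar group, sialyl Lewis x, carried on proteins such as PSGL-1. The group is built stepwise in the Golgi: a branch is started on an O-linked sugar chain, galactose extends it, sialic acid caps it, and fucose is added last. Sulfate can also be added to the chain. In T cells, PSGL-1 is made by resting and activated cells alike, whereas the branching and fucosylating enzymes are known to rise with effector differentiation, which lets the cells enter inflamed tissue.

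Total counts were 17239774 to 23993674 per thymic and 25258341 to 32639570 per splenic sample, so that 3 counts, taken as the limit of detection, corresponded to 0.0961 to 0.162 CPM, that is, counts scaled to a common library size. Levels are CPM scaled by TMM over all 18 samples. *Il2ra* fell by 1.90 on the log2 scale in the thymus and by 1.49 in the spleen (edgeR's quasi-likelihood test, adjusted p = 0.00239 and 1.39e-09). It did not go to 0, and the counts cover the whole gene, not only the deleted exon 4. Among the thymic CD25 KO mice it was 288 and 236 CPM in mice 2 and 4 and 95.2 to 105 CPM in the others. *Foxp3* itself, which defines Tregs, fell by 0.74 and 0.55. Of the 7 Treg markers, which include both genes, 4 fell and none rose in the thymus, whereas 2 fell and 3 rose in the spleen, *Cd4* by 0.32, *Cd3e* by 0.24 and *Ikzf2* by 0.37. Of all genes tested, 6.16% passed in the thymus and 9.45% in the spleen in either direction. All 7 markers were above 3 counts in every group, with summed levels of 2998 to 4278 CPM. In bulk RNA, fewer cells with a transcript and less transcript per cell cannot be told apart.

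The 3 enzymes *Chst2*, *Gcnt1* and *Fut7* had the same order of levels. Each was lowest in thymic CD25 KO Tregs, then thymic WT, then splenic WT, and highest in splenic CD25 KO Tregs, and no neighbouring pair of groups overlapped. For *Chst2* these are the values that chose it. WT and CD25 KO ranges did not overlap for 15.8% of all genes tested in the thymus and 20.2% in the spleen. The share of all genes with the full order was not computed. *Gcnt1* passed the test in both tissues, falling in the thymus and rising in the spleen. Its thymic call rests on 9 to 28 counts per CD25 KO sample. It was kept in only 1 of 10 fits with a mouse left out. *Fut7* rose in the spleen, and its lower thymic values rest on few reads. *Selplg*, which encodes the PSGL-1 protein that carries the sugar, fell by a smaller amount in the thymus. For *B4galt1*, *St3gal4* and *St3gal6* neither tissue passed the test, and *Fut4* was close to the limit of detection throughout.

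**Figure D1:**
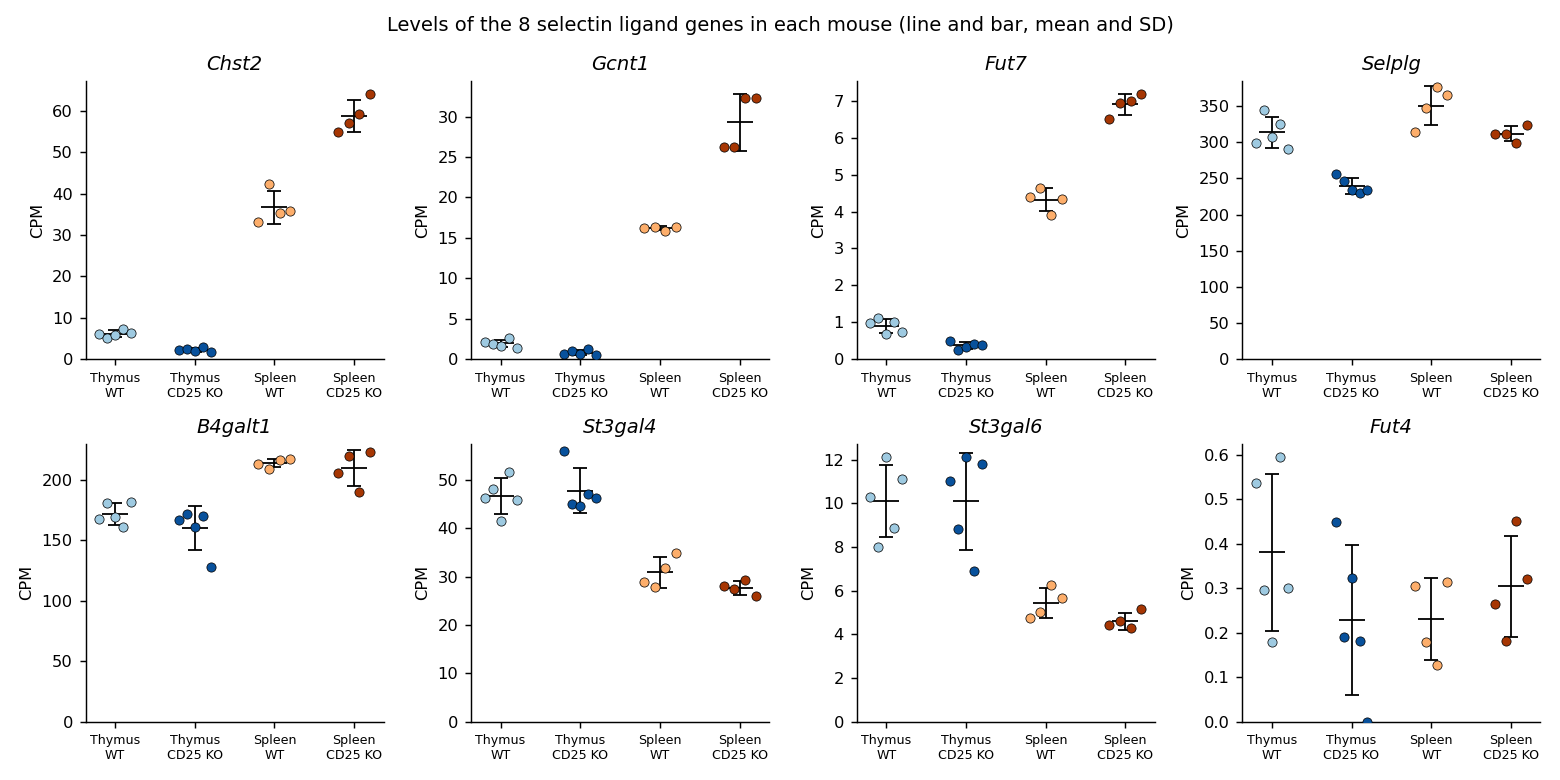
Levels of the 8 genes in CPM (linear axes from 0, scaled per panel) in 5 thymic WT, 5 thymic CD25 KO, 4 splenic WT and 4 splenic CD25 KO mice; each point is 1 mouse, and the line and bar are mean and SD. *Chst2*, *Gcnt1* and *Fut7* step up from thymic CD25 KO to splenic CD25 KO, whereas *St3gal4* and *St3gal6* are higher in the thymus than in the spleen.

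*Chst2* (ENSMUSG00000033350.7, chromosome 9 of GRCm38, 95399292 to 95406722, minus strand) encodes a sulfotransferase that adds sulfate to N-acetylglucosamine. It was at 5.95, 5.02, 5.90, 7.37 and 6.26 CPM in thymic WT mice 1 to 5. The thymic CD25 KO mice had 2.19, 2.52, 1.94, 2.86 and 1.76 CPM, all below every WT mouse. In the spleen the WT mice had 33.1, 42.4, 35.4 and 35.9 CPM and the CD25 KO mice 54.9, 57.0, 59.2 and 64.1 CPM, this time all above every WT mouse. The thymic means were 6.10 ± 0.848 (SD, n = 5) for WT and 2.25 ± 0.442 (n = 5) for CD25 KO, and the splenic means 36.7 ± 3.99 (n = 4) and 58.8 ± 3.93 (n = 4). The fitted log2 fold change was −1.42 (SE 0.159) for thymic and 0.66 (SE 0.0735) for splenic Tregs, a difference of 2.10 (SE 0.162). These are the values that chose the gene, and with 33 to 63 counts per thymic CD25 KO sample they do not rest on single reads.

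*Gcnt1* (ENSMUSG00000038843.17, chromosome 19, 17326141 to 17372844, minus strand) encodes the core 2 enzyme that opens the branch on which sialyl Lewis x is built. Thymic WT mice 1 to 5 had 2.14, 1.90, 1.67, 2.61 and 1.37 CPM, and thymic CD25 KO mice 0.598, 0.949, 0.593, 1.27 and 0.480 CPM. The groups did not overlap, but the lowest WT mouse and the highest CD25 KO mouse, 1.37 and 1.27 CPM, lay close together. The thymic samples held 32 to 57 counts of *Gcnt1* in WT and 9 to 28 in CD25 KO mice. Splenic levels were 16.2, 16.4, 15.8 and 16.3 CPM in WT mice and 26.2, 26.3, 32.3 and 32.3 CPM in CD25 KO mice. The splenic WT mice were nearly level, and the CD25 KO mice formed a lower and a higher pair, both above WT. *Gcnt1* fell 2.44-fold in the thymus (log2 fold change −1.29, SE 0.279, adjusted p = 0.00938) and rose 1.79-fold in the spleen (0.84, SE 0.0825, adjusted p = 4.88e-06).

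*Fut7* (ENSMUSG00000036587.13, chromosome 2, 25423267 to 25426374, plus strand) encodes the fucosyltransferase that completes sialyl Lewis x in leukocytes. Thymic WT mice 1 to 5 had 0.975, 1.10, 0.676, 1.01 and 0.729 CPM, and thymic CD25 KO mice 0.498, 0.237, 0.324, 0.409 and 0.373 CPM. These were low numbers of reads, 15 to 26 per WT and 5 to 10 per CD25 KO sample, and *Fut7* passed the filter on low counts in the thymus through its WT samples, so its thymic p is no support for a change. The thymic log2 fold change was −1.26 (SE 0.258, adjusted p = 0.00736, or 0.0124 with no filter, which misses the threshold). In the spleen, WT mice had 4.39, 4.65, 3.91 and 4.34 CPM and CD25 KO mice 6.52, 6.93, 7.01 and 7.18 CPM, without overlap and with 92 to 224 counts. In the spleen *Fut7* rose 1.58-fold (log2 fold change 0.66, SE 0.115, adjusted p = 0.000837).

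The fitted log2 fold changes of *Gcnt1* and *Fut7* had opposite signs in thymus and spleen, and this difference was itself tested in 1 edgeR fit of all 18 samples. The effect of CD25 KO differed between the tissues by 2.13 (SE 0.261, adjusted p = 2.07e-05) for *Gcnt1* and by 1.94 (SE 0.251, adjusted p = 3.59e-05) for *Fut7* on the log2 scale. Of all genes tested for this difference, 6.98% passed. The value for *Fut7* takes in thymic CD25 KO samples of 5 to 10 counts, so its p carries the limit of the thymic test. That for *Gcnt1* takes in thymic CD25 KO samples of 9 to 28 counts. Over all genes tested in both tissues, 80 of 16214, or 0.493%, passed as lower in the thymus and higher in the spleen, *Gcnt1* among them. The thymic calls were less firm than the splenic ones. *Fut7* missed the threshold in the thymus whichever of the 10 mice was left out (adjusted p 0.0115 to 0.0233). *Gcnt1* missed it in 9 of 10 cases (up to 0.0256), passing only without CD25 KO mouse 4 (0.00458), which had the highest *Gcnt1* of its group. The fold changes stayed negative in each case, from −1.39 to −1.13 for *Fut7* and from −1.54 to −1.15 for *Gcnt1*.

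**Figure D2:**
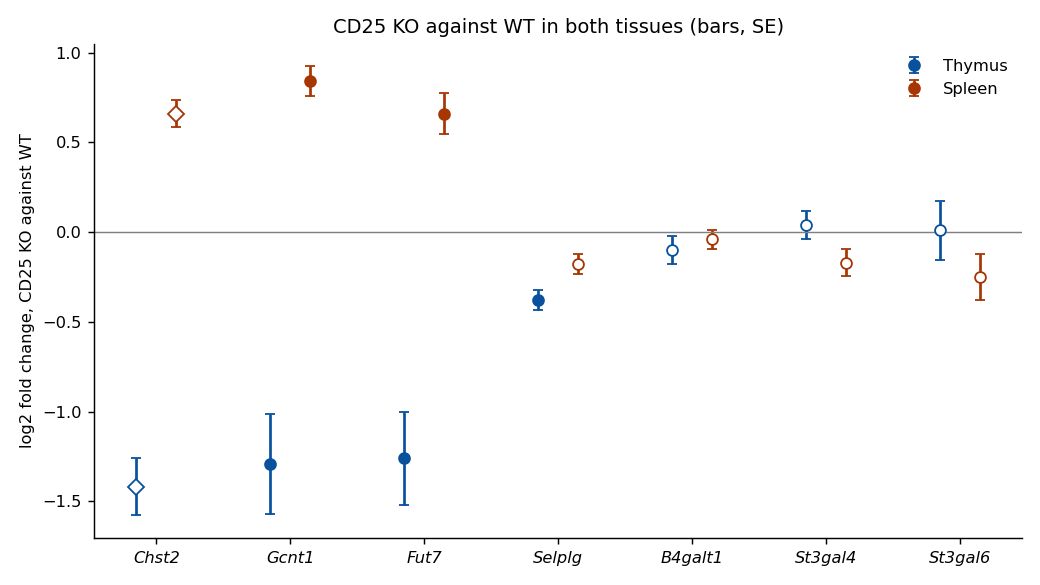
Log2 fold change of CD25 KO against WT (points) with its SE (bars) for the 7 genes kept in the fits within tissues. Thymus is in blue and spleen in brown. Filled circles passed an adjusted p of 0.01 and open circles did not, and diamonds mark *Chst2*, which was not tested. The filled thymic circle of *Fut7* rests on 5 to 10 counts per CD25 KO sample, and its p is no support. *Gcnt1* lies at −1.29 and 0.84 and *Fut7* at −1.26 and 0.66.

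The promoters of these 3 enzymes are shown because their levels moved together. The sequences are the 250 bases before the RefSeq transcription start on GRCm38.p6, read 5′ to 3′ along the gene, for the first start listed where a gene has several. They lie at chr2:25422992-25423241 (plus strand) for *Fut7*, chr19:17372845-17373094 (minus strand) for *Gcnt1* and chr9:95407271-95407520 (minus strand) for *Chst2*. The *Chst2* window starts upstream of the GENCODE gene model and touches an exon of the unclassified gene *Gm37805* on the other strand. Capitals mark letters that match a searched motif:
Fut7: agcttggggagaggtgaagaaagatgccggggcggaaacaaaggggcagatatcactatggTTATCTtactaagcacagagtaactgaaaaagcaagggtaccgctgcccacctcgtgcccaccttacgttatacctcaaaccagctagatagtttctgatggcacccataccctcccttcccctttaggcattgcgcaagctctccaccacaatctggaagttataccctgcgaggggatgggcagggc
Gcnt1: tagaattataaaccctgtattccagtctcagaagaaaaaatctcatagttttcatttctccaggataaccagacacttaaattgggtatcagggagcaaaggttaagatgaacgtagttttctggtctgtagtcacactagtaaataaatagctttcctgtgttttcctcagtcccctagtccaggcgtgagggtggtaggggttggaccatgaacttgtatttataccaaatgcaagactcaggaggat
Chst2: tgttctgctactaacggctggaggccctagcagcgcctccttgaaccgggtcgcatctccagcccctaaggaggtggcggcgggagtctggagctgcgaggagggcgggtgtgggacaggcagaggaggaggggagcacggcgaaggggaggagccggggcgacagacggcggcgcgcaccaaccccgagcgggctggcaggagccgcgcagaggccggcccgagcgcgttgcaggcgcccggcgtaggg
Both strands were searched for a STAT motif (TTCNNNGAA), an AP-1 motif (TGANTCA), a T-box motif (GGTGTGA), an E-box (CACGTG) and a GATA motif (AGATAA). *Fut7* held 1 match, the GATA letters on the other strand at position −189 from the start. *Gcnt1* and *Chst2* held none of the 5 motifs in these windows. Over all 32851 promoter windows of this length the shares with a match were 7.02% for STAT, 6.75% for AP-1, 3.33% for T-box, 6.02% for the E-box and 9.99% for GATA. Among the 11 windows of the 7 members with a RefSeq entry, *B4galt1* held a STAT match at position −99 and 1 of the *St3gal6* windows a GATA match at −220. *Selplg* had no entry.

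*Selplg* (ENSMUSG00000048163.13, chromosome 5, 113818536 to 113832644, minus strand) encodes PSGL-1, the main selectin ligand protein of leukocytes. Thymic WT mice had 299, 345, 308, 326 and 291 CPM, and thymic CD25 KO mice 256, 247, 234, 230 and 234 CPM. The groups did not overlap, and *Selplg* fell 1.30-fold (log2 fold change −0.38, SE 0.0560, adjusted p = 0.00197), a call kept with each of the 10 mice left out. Splenic WT mice had 315, 347, 376 and 366 CPM and CD25 KO mice 312, 311, 299 and 324 CPM, so the groups overlapped. The splenic log2 fold change was −0.18 (SE 0.0553) and missed the threshold (adjusted p = 0.0305), although it passed with upper-quartile scaling (0.0094) and without WT mouse 1 (0.00469). For the difference between the tissues the value was 0.21 with a 95% interval of 0.03 to 0.38 (adjusted p = 0.0918). Unlike its branching and fucosylating enzymes, the carrier thus had negative values in both tissues.

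Galactose is added by *B4galt1* (ENSMUSG00000028413.13, chromosome 4, 40804602 to 40854005, minus strand), a broadly expressed galactosyltransferase. Thymic Tregs had 172 ± 9.16 CPM (SD, n = 5) when WT and 160 ± 18.3 CPM (n = 5) when CD25 KO, and splenic Tregs 214 ± 3.59 CPM (n = 4) and 210 ± 15 CPM (n = 4). WT and CD25 KO mice overlapped in both tissues, with 1 thymic CD25 KO mouse at 127.7 CPM and the others at 161 to 172. The thymic log2 fold change was −0.10 (95% interval −0.27 to 0.06) and the splenic one −0.04 (−0.15 to 0.07).

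Sialic acid is added by *St3gal4* (ENSMUSG00000032038.7, chromosome 9, 35046576 to 35119268, minus strand) and *St3gal6* (ENSMUSG00000022747.16, chromosome 16, 58468125 to 58524243, minus strand). *St3gal4* had 46.7 ± 3.70 CPM in thymic WT and 47.8 ± 4.72 CPM in thymic CD25 KO mice, and 30.9 ± 3.25 and 27.7 ± 1.43 CPM in those of the spleen. *St3gal6* had 10.1 ± 1.64, 10.1 ± 2.22, 5.43 ± 0.682 and 4.61 ± 0.389 CPM in the same order. Both sialyltransferases were thus ordered by tissue the other way round from *Chst2*, *Gcnt1* and *Fut7*, and WT and CD25 KO mice overlapped within each tissue. In the thymus the log2 fold change of *St3gal4* was 0.04 (95% interval −0.13 to 0.21) and that of *St3gal6* 0.01 (−0.35 to 0.37). In the spleen they were −0.17 (−0.33 to −0.01, adjusted p = 0.152) and −0.25 (−0.52 to 0.03, adjusted p = 0.219). In the annotation 26% of the exonic bases of *St3gal6* overlap *Dcbld2* and 14.1% of those of *St3gal4* overlap *4930581F22Rik*, both on the opposite strand. The strand setting of the counting is not given in the sources used here, so reads from these stretches cannot be assigned with certainty.

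*Fut4* (ENSMUSG00000049307.6, chromosome 9, 14748320 to 14752393, minus strand) encodes a second fucosyltransferase of leukocytes that can make Lewis x structures. Thymic samples had 4 to 13 counts in WT and 0 to 9 in CD25 KO mice, and splenic samples 3 to 8 and 5 to 12. All 4 groups overlapped, from 0 to 0.595 CPM, and the gene was too low to be kept in the fit of either tissue. In the fit of all 18 samples its difference between tissues was 1.08 (95% interval −0.42 to 2.59, adjusted p = 0.314). A change of *Fut4* was not detectable at this depth.

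In the thymus *Gcnt1* and *Selplg* fell and none of the 6 tested members other than *Chst2* rose, leaving aside *Fut7* with its limit above; of all genes tested, 6.16% were DE and 2.99% were lower. The WT and CD25 KO ranges of *Gcnt1*, *Fut7* and *Selplg* did not overlap, as for 15.8% of all genes tested. In the spleen 2 of the 6 rose, *Gcnt1* and *Fut7*, and none fell; of all genes, 9.45% were DE and 5.9% were higher. Their ranges did not overlap, as for 20.2% of all genes. The median log2 fold change of the 6 members was −0.24 for thymic and −0.11 for splenic Tregs, against 0.00 and −0.01 over all genes.

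Per kilobase of exon, the 8 transcripts differed widely in level. *Selplg* was highest in each group, at 56.2 to 82.1 CPM per kilobase as group means, followed by *B4galt1* at 37.7 to 50.5 and *St3gal4* at 9.48 to 16.3. In thymic Tregs *St3gal6* came next, at 1.63 in WT and 1.64 in CD25 KO, ahead of *Chst2* (0.832 and 0.308), *Fut7* (0.381 and 0.156) and *Gcnt1* (0.337 and 0.135). In splenic Tregs *Chst2* (5.01 in WT and 8.02 in CD25 KO), *Gcnt1* (2.81 and 5.08) and *Fut7* (1.83 and 2.93) came ahead of *St3gal6* (0.880 and 0.746). Mean levels were 6.02-fold higher in splenic than in thymic WT Tregs for *Chst2*, 8.36-fold for *Gcnt1* and 4.82-fold for *Fut7*. Between the CD25 KO groups the same ratios were 26.1, 37.6 and 18.8.

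**Figure D3:**
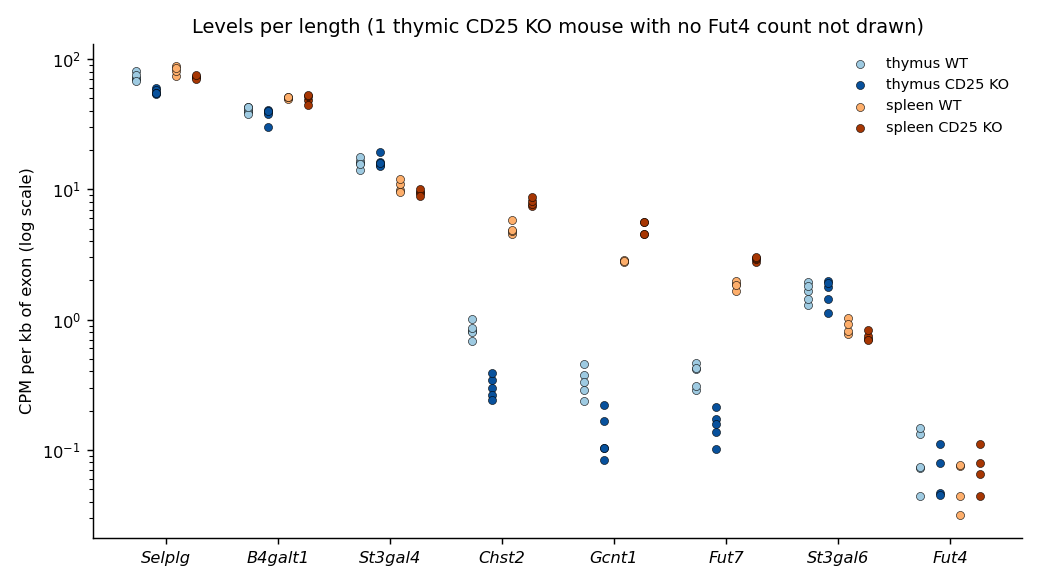
Levels per kilobase of exon on a log axis, with 1 point per mouse in the 4 groups; 1 thymic CD25 KO mouse without a *Fut4* count is not drawn. *Selplg*, *B4galt1* and *St3gal4* stay within a narrow band across groups, whereas *Chst2*, *Gcnt1* and *Fut7* are lowest in thymic CD25 KO and highest in splenic CD25 KO mice.

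The thymic CD25 KO mice were not uniform. Mice 2 and 4, which kept more *Il2ra* RNA (288 and 236 CPM against 95.2 to 105), had the highest *Chst2* (2.52 and 2.86 CPM) and *Gcnt1* (0.949 and 1.27 CPM) of the 5. *Fut7* was not ordered in this way, at 0.237 CPM in mouse 2, the lowest, and 0.409 CPM in mouse 4. *St3gal6* was ordered the other way, lowest in mice 2 and 4 (8.83 and 6.90 CPM against 11 to 12.1). Whether residual *Il2ra* had a part in these levels was not tested. Without both mice the thymic log2 fold change of *Gcnt1* was −1.78 (adjusted p = 0.00176), that of *Fut7* −1.14 (adjusted p = 0.0228) and that of *Selplg* −0.37 (adjusted p = 0.00382). That of *St3gal6* went from 0.01 to 0.22 (adjusted p = 0.269). These mice had the highest *Gcnt1* and the lowest *St3gal6* of the 5. Leaving them out had to move both fold changes this way, so the p of *Gcnt1* without them is no support.

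**Figure D4:**
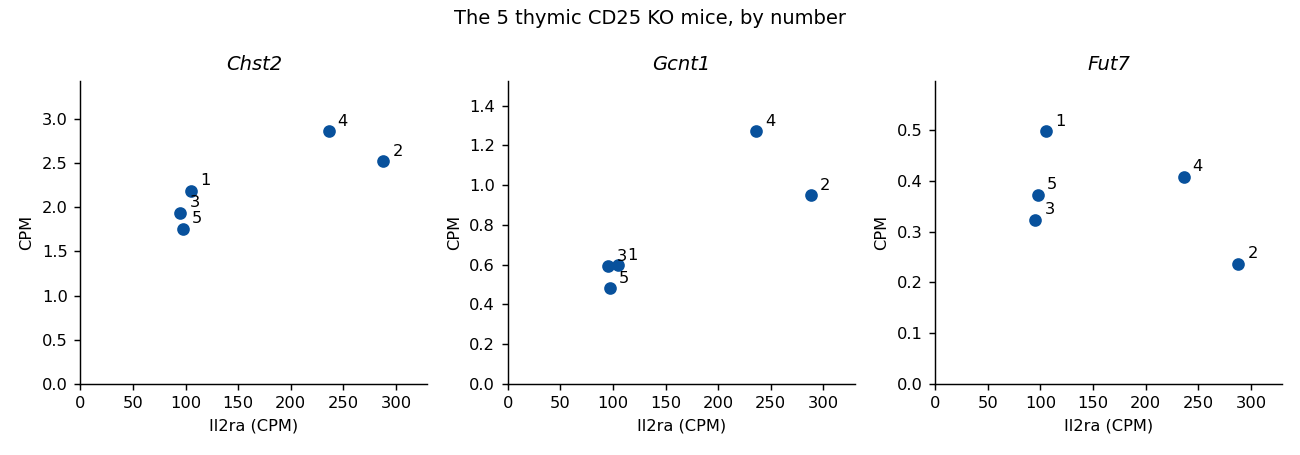
*Chst2*, *Gcnt1* and *Fut7* (vertical axes, CPM) against *Il2ra* (horizontal axes, CPM) in the 5 thymic CD25 KO mice, each point marked with the mouse's number. Mice 2 and 4 lie to the right, with the highest *Chst2* and *Gcnt1* but not the highest *Fut7*.

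The genes whose pattern over the 18 samples was most like that of *Chst2* were sought among 12906 genes with a mean log2 CPM of at least 1, by the root mean square difference of log2 CPM after each gene's mean was subtracted. The 5 closest were *Cemip2*, a cell surface hyaluronidase (0.266), *B4galnt4*, an N-acetylgalactosaminyltransferase (0.287), *S100a11*, a calcium-binding protein (0.319), *Gcnt1* (0.322) and *Pear1*, a receptor known from platelets (0.323). The median over all genes compared was 1.91. *Cemip2* had mean levels of 6.64 CPM in thymic WT and 2.88 CPM in thymic CD25 KO mice, and 34.1 and 54.5 CPM in splenic ones, close to those of *Chst2* in each group. The measure takes in the gap between tissues and the values that chose *Chst2*, so it is a description. *Selplg* and *B4galt1* ranked 2936 and 2549, and *St3gal4* and *St3gal6* 11358 and 12089, while *Fut7* and *Fut4* were below the minimum level. By mean absolute difference 4 of the 5 remained among the closest 5, *Gcnt1* being the exception.

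Beyond the 8 genes, 88 other genes of the pathway were listed, from ligand proteins and selectins to sugar transporters. Of the 69 tested in the thymus 4 fell and 4 rose, of the 71 tested in the spleen 5 fell and 6 rose, and for 13 of 72 the effect differed between tissues. Of all genes 6.16%, 9.45% and 6.98% passed these tests in either direction. The pathway counts include thymic *B4galt4* and splenic *Galnt3*, which passed the filter on low counts through the group where they were higher. The median log2 fold change of the list was −0.04 for thymic and 0.00 for splenic Tregs, against 0.00 and −0.01 over all genes.

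Among the 9 other ligand proteins, *Spn*, which encodes CD43, a sialomucin that can carry E-selectin ligand sugars, moved like the branching enzymes but by less. It fell by 0.53 on the log2 scale in the thymus (adjusted p = 0.00369) and rose by 0.24 in the spleen (adjusted p = 0.00807), a difference of 0.79 (SE 0.119, adjusted p = 0.000195). *Cd44*, a hyaluronan receptor and E-selectin ligand, rose by 0.38 in the spleen (adjusted p = 0.000555). In the thymus *Lamp1*, a lysosomal membrane protein, fell by 0.28 and *Podxl*, a sialomucin, rose by 0.73 (adjusted p = 0.00461 and 0.00534). For *Podxl* and for *Glg1*, a Golgi protein that can bind E-selectin, the effect differed between tissues by −0.91 and 0.30 (adjusted p = 0.00347 and 0.00951). The calls of *Spn* within tissues were uneven: the thymic one was kept with 5 of 10 mice left out in turn and the splenic one with 1 of 8, whereas the difference was kept with each of 18.

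The selectins *Sele* and *Selp* were both lower in splenic CD25 KO Tregs. *Sele* fell by 1.21 (adjusted p = 0.000368) from 4.19 ± 0.906 to 1.83 ± 0.307 CPM, and *Selp* by 1.11 (adjusted p = 0.00649) from 2.62 ± 0.861 to 1.22 ± 0.281 CPM. E- and P-selectin are best known from endothelium and platelets, and *Selp* was higher in the thymus than in the spleen, with group means of 23.5 for WT and 26.5 CPM for CD25 KO mice there. Neither passed in the thymus, with log2 fold changes of −0.17 for *Sele* and 0.18 for *Selp*. The difference between tissues passed for *Selp* (−1.28, adjusted p = 0.00312) and not for *Sele* (−1.03, adjusted p = 0.0335).

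Of the 11 genes that start O-glycans or form core 1, *Galnt3*, which attaches the first sugar to the protein, was higher by 1.94 in splenic CD25 KO Tregs. It had 3 to 13 counts in splenic WT and 25 to 48 in CD25 KO samples, so it was kept in that fit through the CD25 KO group and its p is no support. Its relatives *Galnt10* and *Galnt6* fell by 0.68 and 0.25 in the spleen (adjusted p = 4.22e-05 and 0.00176). *C1galt1*, the core 1 galactosyltransferase, rose by 0.45 in the thymus (adjusted p = 0.0084). The fitted difference between tissues was 3.03 for *Galnt3*, with 1 to 12 counts per thymic sample, and its p has the same limit. No other gene of core 2 and core 3 branching passed in either tissue, with 2 of 4 tested in the thymus and 1 of 4 in the spleen.

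Among 12 genes that extend the chain with lactosamine units, *B4galt4*, a relative of *B4galt1*, was lower in thymic CD25 KO Tregs. It went from 1.61 ± 0.171 CPM in WT to 0.368 ± 0.132 CPM in CD25 KO mice, or from 33 to 41 counts per sample to 5 to 12, a log2 fold change of −2.10 (SE 0.237). It was kept in the fit through its WT samples, so its thymic p is no support. In the spleen *B4galt4* did not pass (0.10, adjusted p = 0.611), and the effect differed between tissues by 2.22 (SE 0.233, adjusted p = 3.6e-06). That difference takes in the low thymic counts, so its p has the same limit. *B4galt5* rose by 0.34 in the spleen (adjusted p = 0.00121).

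The sialyltransferases that passed act on other linkages than *St3gal4* and *St3gal6*. *St6galnac3* and *St8sia6* rose in the thymus, by 0.60 and 0.74 (adjusted p = 0.00225 and 0.00292), and *St8sia1*, the ganglioside GD3 synthase, fell by 0.36 in the spleen (adjusted p = 0.00202). For all 3 the effect differed between tissues, by −0.72, −0.98 and −0.67 (adjusted p = 0.00195, 0.000864 and 0.00139), opposite in sign to *Gcnt1* and *Fut7*. Of the 8 other fucosyltransferases only *Fut8*, which adds core fucose to N-glycans, passed, rising by 0.34 in the spleen (adjusted p = 0.000789) with a difference between tissues of 0.40 (adjusted p = 0.00767). Of the 7 other sulfotransferases none passed within a tissue. For *Tpst2*, which sulfates tyrosines such as those PSGL-1 needs to bind P-selectin, the effect differed between tissues by 0.56 (adjusted p = 0.00603), with a thymic log2 fold change of −0.33 and a splenic one of 0.21.

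Of 16 genes for donor sugars and sulfate, *Slc35c1*, the Golgi GDP-fucose transporter, fell by 0.46 in the thymus (adjusted p = 0.00683) and was at 0.00 in the spleen, a difference of 0.47 (adjusted p = 0.00866). Of the 6 sialidases and fucosidases, *Fuca2* rose by 0.40 in the spleen (adjusted p = 0.00232), and for the sialidase *Neu3* the effect differed between tissues by 0.62 (adjusted p = 0.00772). Leaving out single mice ended several of these calls. In the thymus those of *Podxl*, *Lamp1* and *Slc35c1* were kept in 4 of 10 cases each and that of *C1galt1* in 2, while those of *St6galnac3* and *St8sia6* were kept in all 10. In the spleen the call of *Selp* was kept in 2 of 8 cases, those of *Galnt6* and *St8sia1* were lost without WT mouse 3 (adjusted p = 0.0101 and 0.0104), and that of *Fuca2* without WT mouse 3 or 4 (up to 0.0114). Of the differences between tissues, those of *Fut8* and *Glg1* were kept in 2 of 18 cases, *Slc35c1* in 4, *Neu3* in 5, *Tpst2* in 10 and *Selp* in 16, and the others in all 18.

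**Figure D5:**
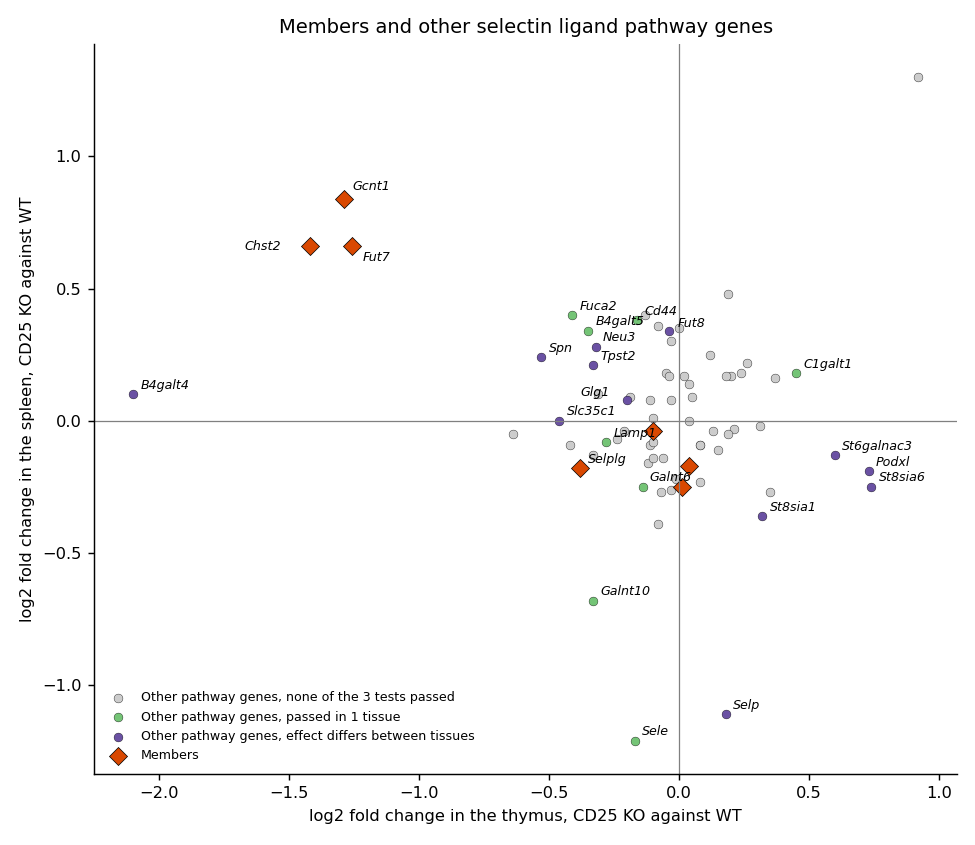
Log2 fold change in the thymus (horizontal) and in the spleen (vertical), CD25 KO against WT, for the 7 members (diamonds) and 67 other pathway genes tested in both tissues (circles); purple marks the 12 drawn genes whose effect differed between tissues, green 8 others that passed in 1 tissue, and grey the 47 that passed no test. *Chst2*, *Gcnt1* and *Fut7* stand together at the upper left, lower in the thymus and higher in the spleen.

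Markers of Treg state moved with the same contrasts. Of 14 effector Treg genes, 7 of the 13 tested fell and none rose in the thymus (median log2 fold change −1.05), and 13 rose and none fell in the spleen (median 0.86). Their summed level was 350 to 395 CPM for thymic WT and 194 to 305 CPM for thymic CD25 KO mice, and 786 to 914 CPM and 1346 to 1525 CPM for splenic ones, the same order of groups as for *Chst2*, *Gcnt1* and *Fut7*. Among the effector genes called in the thymus, *Klrg1* had 3 or fewer counts in every CD25 KO sample. It was kept in that fit through its WT samples, so its p is no support. Of 8 central Treg genes 1 fell in the thymus, and 3 fell and 1 rose in the spleen. Several genes of both lists were picked by the study from these samples, so their directions are not independent evidence. Of 10 cell cycle genes 9 rose in the spleen, where their sum was 157 to 178 CPM in WT and 273 to 377 CPM in CD25 KO mice. None passed in the thymus, where all 10 had negative values (median log2 fold change −0.69). The thymic sums were 527 to 1285 CPM in WT and 170 to 1121 CPM in CD25 KO mice. The median sum was highest in thymic WT mice, at 685 CPM, unlike the levels of *Chst2*, *Gcnt1* and *Fut7*. Over all genes tested, 6.16% passed in the thymus and 9.45% in the spleen, with 2.99% lower in the thymus and 5.9% higher in the spleen. The part of these states in the changes of the selectin ligand genes was not tested.

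Neutrophils, monocytes, NK cells and CD8 T cells can also express *Fut7*, *Gcnt1* and *Selplg*. The methods give an enrichment of CD4+ cells on magnetic beads and a FACS sort on the reporter. How far these steps removed cells of other kinds was not tested. Of 37 markers of 7 other cell types, 18 were tested in the thymus and none passed. In the spleen 16 were tested, of which *Klrb1c* (1.90), *Pax5* (1.04) and *Lyz2* (1.03) rose and *Pecam1* fell by 0.37. Of all genes tested, 6.16% passed in the thymus and 9.45% in the spleen. Other markers of these lists went the other way in the spleen. Of the 4 myeloid markers tested there, 3 had negative values and only *Lyz2* a positive one (median −0.23). Of the 3 B cell markers tested, *Cd79a* was at −0.45 and *Cd79b* at 0.02. The summed levels in splenic WT and CD25 KO mice were 4.93 to 7.90 and 10.9 to 16.4 CPM for 4 NK cell markers, with *Ncr1* at 0 in both groups, and 11.9 to 18.8 and 16.9 to 23.1 CPM for 6 myeloid markers. For 6 neutrophil markers they were 0.305 to 0.703 and 0.188 to 0.831 CPM, with *Ly6g* at 0 in both. For 6 B cell markers they were 20.5 to 22.0 and 19.9 to 24 CPM, and for 6 CD8 and double-positive thymocyte markers 8.24 to 10.3 and 8.66 to 11.3 CPM, with *Rag1* at 0. In thymic WT and CD25 KO mice the sums were 40.2 to 172 and 45.2 to 99.7 CPM for the thymocyte markers, 0.343 to 2.34 and 0.249 to 0.593 CPM for the neutrophil markers, 5.14 to 22.5 and 3.09 to 14.7 CPM for the myeloid markers and 11.8 to 14.5 and 10.4 to 14.5 CPM for the B cell markers. NK cell markers had 3.43 to 4.48 and 3.25 to 8.58 CPM there. The 5 endothelial markers, *Pecam1* among them, had median sums of 209 and 220 CPM in thymic WT and CD25 KO mice and of 176 and 136 CPM in splenic ones, with *Emcn* at 3 or fewer counts throughout. Also at 3 or fewer counts were *Tek* in both thymic groups and splenic CD25 KO mice, and *Cdh5* and *Kdr* in splenic WT mice. Erythroid markers had 12.5 to 30.1 and 8.53 to 39.5 CPM in thymic mice and 5.19 to 6.75 and 4.51 to 6.75 CPM in splenic ones. The part of the NK cell and myeloid markers in the splenic rise of *Gcnt1* and *Fut7* was not tested.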

How the data were processed

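Paired-end RNA-seq reads of Tregs sorted by FACS, from ribosome-depleted libraries, were aligned by the authors to GRCm38 with STAR 2.5.0b and counted with featureCounts 1.5.0 on GENCODE M13, as the paper's methods and the submitters' processing notes give it. The deposited values are raw counts per gene, without normalization, for 18 samples; 0 columns were left out. Symbols, coordinates and exonic lengths came from GENCODE M21, which names 50376 of the 50600 identifiers, and promoters from the RefSeq table of GRCm38.p6.

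Groups came from the labels. Genes were kept by edgeR's filterByExpr, scaled by TMM and tested tissue by tissue with the quasi-likelihood F test of edgeR 4.0.16 in R 4.3.3, with p adjusted by Benjamini-Hochberg. FDR < 0.01 was called DE; DESeq2 1.42.0, which the study used, was an alternative. The difference between tissues was a contrast of 1 fit of all 18 samples. SE came from the fold change and the F statistic, and 95% intervals from the same fit. Levels are CPM after TMM over all samples, per kilobase of exon where genes are compared; log2 CPM for the likeness to *Chst2* used a prior count of 2. The limit of 3 counts covers counting error only, since reads carry no molecular identifiers, whereas the intervals take in the spread between mice. The test was also run on simulated counts.

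The members and gene lists were chosen with earlier results of these data known. Named genes were the 8 members, *Il2ra*, *Foxp3*, every pathway gene passing a test, up to 3 called markers per other list and tissue, and the 5 genes most like *Chst2*; 1 gene under this rule is not reported here. The numbers of the thymic mice did not pair the samples: the correlation of the deviations of same-numbered mice was −0.239 to 0.144.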

Additional observations from a re-analysis of the deposited data

Results flagged for a closer look

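*B4galt1* and *St3gal4* each had 1 thymic CD25 KO mouse far from the others of its group. *B4galt1* was 127.7 CPM in mouse 5, where the median of the others was 169 CPM, and *St3gal4* was 56.02 CPM in mouse 1, where it was 45.6 CPM. By chance about 1 in 20 groups would have such a sample, and 32 groups were examined.

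For *Gcnt1* (2.13) and *Fut7* (1.94) the log2 fold change of CD25 KO against WT differed between spleen and thymus by the edgeR test of the difference. For *Chst2* (2.10) every CD25 KO mouse was below WT in the thymus and above WT in the spleen; this difference was not tested, because the gene was chosen for it. Among the other pathway genes the tested difference, spleen minus thymus, was positive for *Galnt3* (3.03), *B4galt4* (2.22), *Spn* (0.79), *Neu3* (0.62), *Tpst2* (0.56), *Slc35c1* (0.47), *Fut8* (0.40) and *Glg1* (0.30). It was negative for *Selp* (−1.28), *St8sia6* (−0.98), *Podxl* (−0.91), *St6galnac3* (−0.72) and *St8sia1* (−0.67). *Galnt3* was kept in the fit through the splenic CD25 KO samples, where it is high. The differences of *Fut7*, *Gcnt1* and *B4galt4* take in low counts in thymic CD25 KO samples. Tissue, date in the column headers, mouse model and age cannot be told apart in any of these.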

How the results depend on the processing

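The direction of every called member was the same in all alternatives run. The splenic calls of *Gcnt1* and *Fut7* were kept in each, and so was their difference between tissues wherever they were tested, since with at least 10 counts in every sample both dropped out (0 members called for the difference). In the thymus 3 members were called, where 6.16% of all genes tested passed. The 3 include *Fut7*, whose thymic p is no support, as given above. The count was 1 with at least 10 counts in every sample, where *Gcnt1* and *Fut7* dropped out. With each mouse left out it was between 1 and 2. The replicate block on the mouse number left 0 thymic members called (adjusted p 0.0116 for *Gcnt1* and *Selplg* and 0.0273 for *Fut7*) and 209 DE genes in place of 1047; with the GC trend also removed these were 1 and 208. The numbers do not pair the mice, and only WT mouse 1 correlated best with the CD25 KO mouse of its own number. *Fut7* also missed the threshold in the thymus with the GC trend removed (0.0132) and with no filter on low counts (0.0124). The cause was not tested. Of the other pathway genes, thymic *Lamp1*, *C1galt1* and *Slc35c1* missed the threshold with the GC trend removed and, with *Spn*, *Podxl*, *St6galnac3* and *St8sia6*, under the replicate block. Splenic *Spn* missed it with upper-quartile scaling. Splenic *Cd44*, *Spn*, *Galnt6*, *B4galt5*, *St8sia1* and *Fuca2* missed the threshold with all 18 samples in 1 fit, and the differences of *Glg1*, *Fut8*, *Tpst2*, *Slc35c1* and *Neu3* with upper-quartile scaling, those of *Glg1* and *Fut8* also with no filter and those of *Glg1* and *Neu3* with the GC trend removed; their signs did not change.

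The thymic count of DE genes was 2763 by DESeq2, 2881 with all 18 samples in 1 fit, 2008 without CD25 KO mice 2 and 4, 3951 at FDR < 0.05 and 371 to 1087 with each mouse left out. The splenic count of 1651 became 795 with all 18 samples in 1 fit, 3001 at FDR < 0.05 and 1099 to 1723 with each mouse left out. The count of 1305 genes whose effect differed between tissues became 2188 by DESeq2, 2307 without mice 2 and 4, 3149 at FDR < 0.05 and 817 to 1489 with each mouse left out. Depth limits the thymic values of *Fut7*, *Gcnt1* and *B4galt4* and all values of *Fut4*.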
